A study of Mus musculus with 20 samples.

Results

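The 10 genes described here encode enzymes that handle nitrogen in the liver, and each was found by its symbol among the 24972 rows of the liver table. They are the 5 urea cycle enzymes (Cps1, Otc, Ass1, Asl and Arg1), the glutaminase Gls2, the glutamine synthetase Glul, the ornithine aminotransferase Oat, the tyrosine aminotransferase Tat and the tryptophan dioxygenase Tdo2. All 10 passed the filter on low values in both genotypes. Arg1 was also read in the table of RAW264.7 cells. Total liver RNA came from mice labelled male and kept on their diet for 6 weeks, 3 RageΔMye libraries fed alcohol, 3 RageΔMye libraries fed the control diet, 4 WT libraries fed alcohol and 4 WT libraries fed the control diet. The name RageΔMye is taken to mean that Ager, which encodes RAGE, was deleted from myeloid cells, and the labels do not name the Cre line. RAW264.7 is a mouse macrophage line, not primary macrophages, and 3 libraries came from cells exposed for 6 hours to a complex of [O] HMGB1 with IL1β and 3 from cells given BSA.

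The urea cycle turns ammonia, which is toxic, into urea for excretion. Hepatocytes near the portal vein take up most of the ammonia, with Gls2 releasing it from glutamine and the urea cycle enzymes fixing it, whereas a thin layer of hepatocytes around the central vein uses Glul to capture the ammonia that escapes. Oat is found in the same pericentral layer. Tat and Tdo2 start the breakdown of tyrosine and tryptophan and are classical glucocorticoid-induced genes of hepatocytes.

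The promoters of Glul and Tat, the members called as different between diets in WT liver, are shown first. That of Oat, the other pericentral member, which was not called, is shown with them. Each is RefSeq sequence of build GRCm38.p6, from 250 bases before to 50 bases after the gene's start. Capitals mark the base at the start and any match to the motifs named next. They lie at chr1:153899679-153899978 on the plus strand (Glul), chr8:109990186-109990485 on the plus strand (Tat) and chr7:132576349-132576648 on the minus strand (Oat).
Glul: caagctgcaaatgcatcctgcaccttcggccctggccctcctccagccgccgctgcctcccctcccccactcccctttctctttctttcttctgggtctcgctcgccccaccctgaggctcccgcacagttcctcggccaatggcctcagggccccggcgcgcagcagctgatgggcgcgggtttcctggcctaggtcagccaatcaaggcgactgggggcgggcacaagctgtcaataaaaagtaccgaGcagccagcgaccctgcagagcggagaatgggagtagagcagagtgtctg
Tat: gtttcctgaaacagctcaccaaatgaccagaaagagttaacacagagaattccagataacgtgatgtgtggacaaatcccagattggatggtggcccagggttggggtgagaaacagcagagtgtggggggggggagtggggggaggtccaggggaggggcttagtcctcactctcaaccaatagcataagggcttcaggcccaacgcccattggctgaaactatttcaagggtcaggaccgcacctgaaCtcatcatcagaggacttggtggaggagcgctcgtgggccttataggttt
Oat: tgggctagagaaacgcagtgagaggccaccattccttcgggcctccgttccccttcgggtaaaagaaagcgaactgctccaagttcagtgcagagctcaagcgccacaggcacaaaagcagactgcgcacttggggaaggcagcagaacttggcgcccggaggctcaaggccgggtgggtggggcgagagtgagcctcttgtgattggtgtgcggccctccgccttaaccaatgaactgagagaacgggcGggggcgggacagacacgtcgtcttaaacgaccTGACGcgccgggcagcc
Of the 10 members, 6 had a promoter in the table used. On both strands, neither Glul nor Tat held the glucocorticoid receptor half-site TGTTCT, the TCF/LEF core CTTTGA, the cAMP response element half-site TGACG, the FOXA core TGTTTAC or the TATA box TATAAA. Oat held TGACG, after its start. Among 32851 promoters of the same length, 19.0% held TGTTCT, 16.0% held CTTTGA, 20.8% held TGACG, 3.65% held TGTTTAC and 13.6% held TATAAA. These letters do not overlap one another in the sequences shown. The windows were searched for no other motif, and sequence outside them was not searched, so sites further away could not be found. The GC content was 64.3% for Glul, 53.7% for Tat and 61.7% for Oat.

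The groups differed in more than diet and genotype. The libraries labelled RageΔMye listed 7596 to 8502 genes above 0, against 15113 to 15599 in WT libraries, and the median SD of log2 values within groups was 0.773 to 0.796 against 0.159 to 0.216. Ager was not lower but higher in the libraries labelled RageΔMye, with 93.1 to 166 TPM, a length-corrected share of all transcripts. In WT libraries it held 0.0194 to 0.478 TPM. The label concerns myeloid cells, which total liver does not show apart, and the cause of the higher Ager was not tested. WT alcohol libraries held 17.8 to 27.3 TPM of Xist, against 0.00165 to 0.135 TPM in WT control libraries, and summed Y-linked genes held 0 to 0.0161 TPM against 11.3 to 16.6 TPM. Diet and sex therefore cannot be told apart in WT liver, for any gene described here. In the libraries labelled RageΔMye, summed Y-linked genes held 0.276 to 1.74 TPM on alcohol and 3.16 to 4.50 TPM on control, again without overlap, while Xist held 0.322 to 0.990 TPM on alcohol and 0 to 3.10 TPM on control. The hepatocyte marker Alb was present throughout, at 20896 to 28826 TPM over the libraries labelled RageΔMye. In WT libraries it held 112218 to 128159 TPM on alcohol and 86946 to 109522 TPM on control, without overlap. In bulk liver, fewer cells of a type and less RNA per cell cannot be told apart.

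In WT liver, alcohol diet went with higher Glul and Tat, while the 5 urea cycle genes, Gls2, Oat and Tdo2 did not pass the test. Glul was 1.51-fold higher and Tat 1.76-fold higher. In the limma fit of the 8 WT libraries, 2 of the 10 genes were called at an adjusted p under 0.05. Of all 9747 genes tested, 31.2% were called, 13.3% higher and 17.9% lower. A share of 2 in 10 is not above the 31.2% called in either direction. Both called members were higher, and with 10 genes their share was not read as different from the 13.3% called higher.

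**Figure D1:**
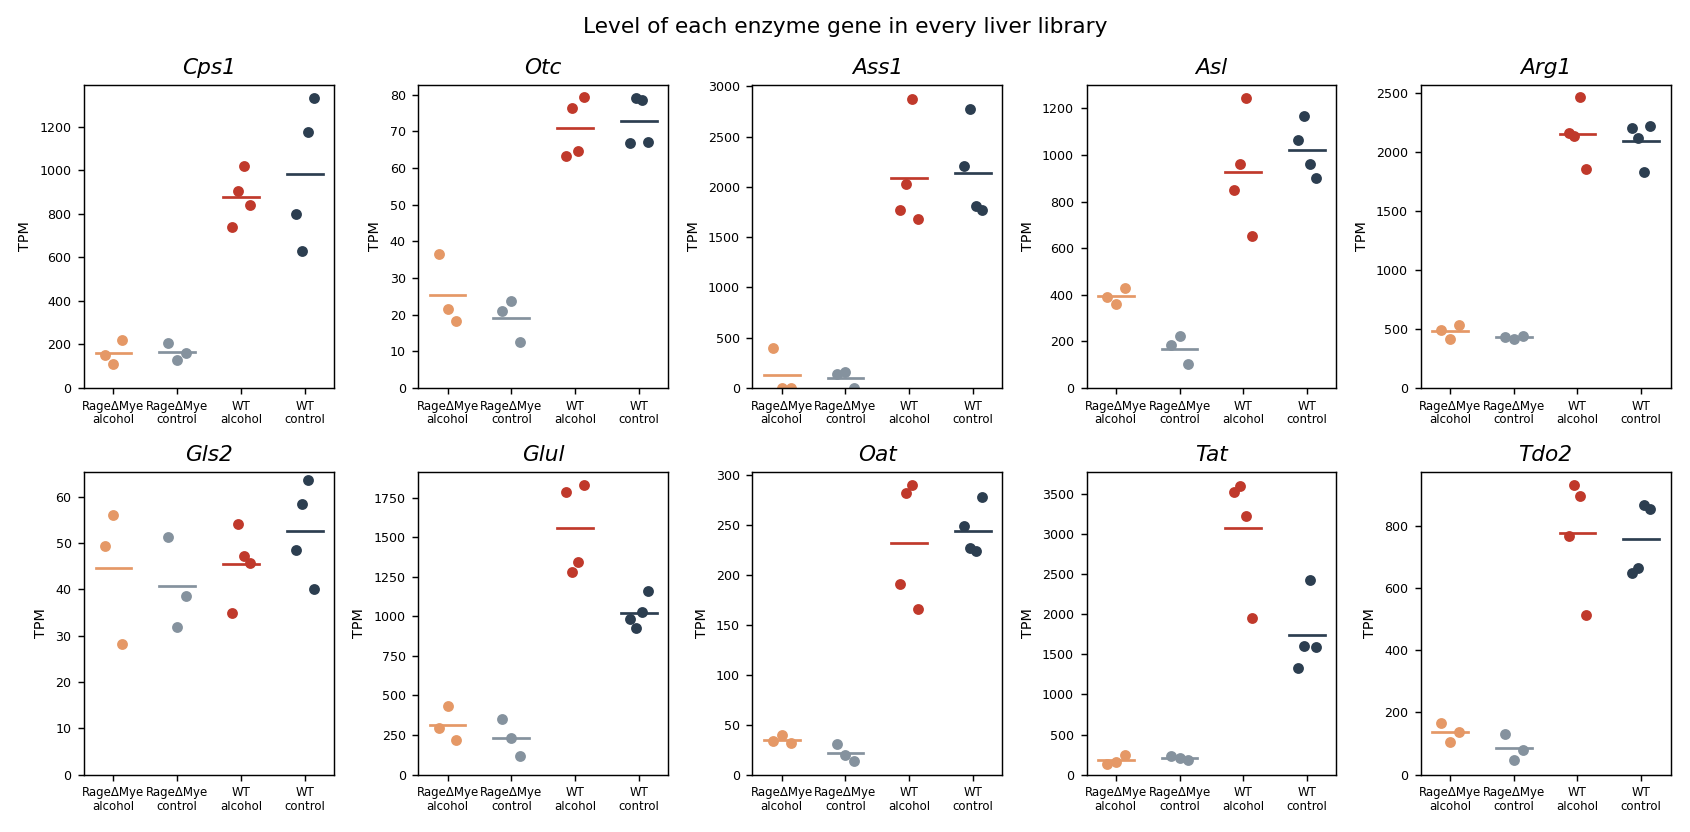
Level of each of the 10 genes in every liver library, in TPM, with 1 point per library and a line at the group mean. Glul is higher in all 4 WT alcohol libraries than in any WT control library, and the libraries labelled RageΔMye lie lower than WT for every gene except Gls2.

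Glul, which makes glutamine from glutamate and ammonia, had 1787, 1279, 1341 and 1828 TPM in livers of WT mice on alcohol, against 982, 927, 1024 and 1159 TPM in the WT control libraries. Every alcohol library was above every control library. The means were 1559 ± 288 TPM on alcohol and 1023 ± 98.8 TPM on control (SD, n = 4 each). The log2 fold change was 0.59 (SE 0.145, 95% confidence interval 0.27 to 0.91, limma adjusted p = 0.0119), and a two-sided exact permutation test gave p = 0.0286, the smallest that 4 against 4 libraries allow. Of all genes tested, 12.3% had higher alcohol values with no overlap. Glul kept its call when each library was left out in turn (log2 fold change 0.51 to 0.68, adjusted p = 0.00834 to 0.0422). It lost the call without WT alcohol replicate 4 and WT control replicate 3 together, a pair chosen after the values were seen (0.51, adjusted p = 0.0739). The call was also lost in the joint fit of all 14 liver libraries (adjusted p = 0.457), which gives both genotypes 1 shared spread. With library weights in that joint fit Glul was called (limma adjusted p = 0.00296).

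Tat, which removes the amino group of tyrosine, had 3522, 3606, 3231 and 1952 TPM in livers of WT mice on alcohol, against 1337, 1604, 2429 and 1589 TPM in the WT control libraries. Replicates 1 to 3 on alcohol were above every control library, and alcohol replicate 4 fell inside the control range. The means were 3078 ± 768 TPM on alcohol and 1740 ± 476 TPM on control (SD, n = 4 each). The log2 fold change was 0.82 (SE 0.228, 95% confidence interval 0.31 to 1.32, limma adjusted p = 0.0216), and the two-sided exact permutation test gave p = 0.0571. The call of Tat rested on several libraries. The adjusted p was 0.0601 without WT control replicate 1, 0.0645 without WT alcohol replicate 1, 0.0555 without replicate 2 and 0.0516 without replicate 3, while without WT alcohol replicate 4 the lowest adjusted p of these fits was reached (0.0058, log2 fold change 1.02). Without a filter on low values the adjusted p was 0.0604. In the joint fit of all liver libraries it was 0.0940, and with library weights in that fit 0.00444.

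TPM values share 1 total, and a group of abundant genes differed between the same WT groups. The summed Mup genes, which encode major urinary proteins, held 1771 to 2510 TPM on alcohol and 72566 to 109461 TPM on control. With TPM rescaled over the genes other than Mup, Glul differed by 0.45 on the log2 scale (adjusted p = 0.0317) and Tat by 0.67 (adjusted p = 0.0416). Markers of other cells also differed between these groups, where 31.2% of all genes tested were called and 13.3% were called higher. Of 3 tested neutrophil markers all 3 passed as higher (summed markers 90.7 to 133 TPM on alcohol, 24.6 to 66.2 TPM on control), as did 3 of 6 sinusoidal endothelial markers (75.8 to 166 TPM and 49.5 to 119 TPM) and 2 of 5 stellate markers (67.2 to 122 TPM and 37.5 to 56.3 TPM). Of 7 macrophage markers none passed (138 to 305 TPM and 184 to 196 TPM). Of 3 tested T and NK cell markers 1 was higher (3.88 to 6.85 TPM and 1.73 to 3.08 TPM), and of 4 erythroid markers 2 were higher and 1 lower (42.7 to 82.7 TPM and 137 to 262 TPM). The 1 tested cholangiocyte marker did not pass. Of 6 tested hepatocyte markers 2 were higher (Ahsg and Hnf4a) and 1 lower (Serpina1c). Both higher ones missed the threshold in 4 of 8 fits that left out 1 library. With 1 library left out, the higher erythroid markers Hba-a1 and Hbb-bt missed the threshold in 5 and 4 of 8 fits, the stellate markers Des and Dcn in 5 and 1, and the endothelial marker Pecam1 in 2. The part of these cells in the Glul and Tat values was not tested.

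Among the urea cycle genes, Cps1, the mitochondrial entry enzyme that fixes ammonia as carbamoyl phosphate, was at 740, 907, 1022 and 840 TPM in WT alcohol and at 800, 632, 1178 and 1332 TPM in WT control libraries. The groups overlapped, and the control libraries spread wider than the alcohol libraries. Its log2 fold change was -0.12 (95% confidence interval -0.60 to 0.37, adjusted p = 0.722). Otc, which joins carbamoyl phosphate to ornithine, lay at 63.1 to 79.3 TPM on alcohol and 66.9 to 79.1 TPM on control (-0.04, interval -0.31 to 0.22). Both groups of Otc covered nearly the same range.

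Ass1, which joins citrulline to aspartate, was at 1765, 2024, 2870 and 1684 TPM in WT alcohol and at 2210, 2770, 1806 and 1774 TPM in WT control libraries. Asl, which splits the product to give arginine, was at 850, 962, 1244 and 650 TPM on alcohol and at 1063, 1167, 961 and 903 TPM on control. Arg1, which releases urea from arginine, was at 2159, 2136, 2464 and 1856 TPM on alcohol and at 2200, 2115, 1826 and 2217 TPM on control. In these 3 genes alcohol replicate 3 was the highest and alcohol replicate 4 the lowest of the alcohol libraries. The log2 fold changes were -0.05 for Ass1 (interval -0.48 to 0.39), -0.18 for Asl (-0.58 to 0.23) and 0.04 for Arg1 (-0.22 to 0.31). As ratios of alcohol to control these intervals run from 0.718 to 1.31 for Ass1, 0.670 to 1.17 for Asl and 0.856 to 1.24 for Arg1. The 5 genes together summed to 5109 to 7664 TPM on alcohol and 5850 to 6762 TPM on control, and the alcohol libraries spanned the control range.

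Gls2, the liver glutaminase, was at 34.8, 54.0, 47.1 and 45.6 TPM in WT alcohol and at 48.5, 58.5, 63.6 and 40.0 TPM in WT control libraries (log2 fold change -0.20, interval -0.59 to 0.18, adjusted p = 0.394). Oat, which passes the amino group of ornithine on, was at 191, 282, 290 and 166 TPM on alcohol and at 250, 227, 224 and 278 TPM on control (-0.11, interval -0.51 to 0.30, adjusted p = 0.681). The alcohol values of Oat lay on both sides of all control values. Tdo2, the first step of tryptophan breakdown, was at 767, 930, 897 and 515 TPM on alcohol and at 647, 665, 868 and 854 TPM on control (0.01, interval -0.41 to 0.44, adjusted p = 0.969).

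**Figure D2:**
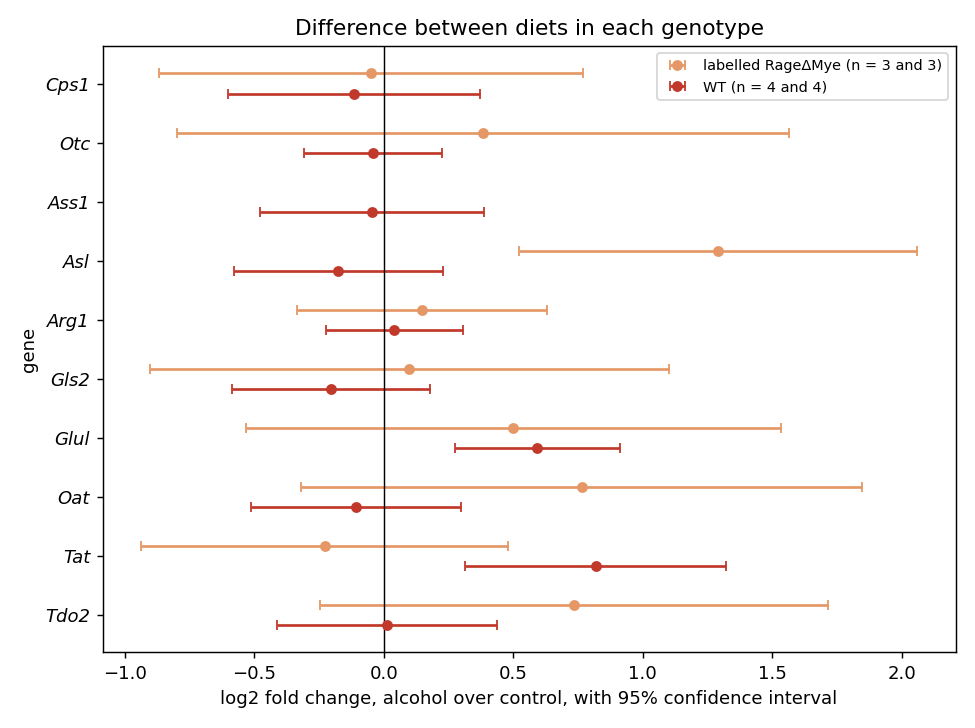
Log2 fold change of alcohol over control for each gene in the libraries labelled RageΔMye and in WT libraries, with 95% confidence intervals. Only the WT intervals of Glul and Tat and the RageΔMye interval of Asl lie away from 0, and Ass1 is left out for RageΔMye because it was listed at 0 in 3 of the libraries.

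The members did not all vary together within the WT groups. On the log2(TPM + 1) scale, WT alcohol replicate 4 deviated from its group mean by -0.62 for Tat, -0.56 for Tdo2, -0.47 for Asl, -0.44 for Oat and -0.28 for Ass1. In the same library Glul deviated by 0.25 and Otc by 0.17. Alcohol replicate 3 had deviations of 0.49 for Ass1, 0.46 for Asl and 0.36 for Oat, with -0.20 for Glul. Glul and Oat, both pericentral, deviated in opposite directions in all 4 alcohol libraries. In control replicates 2 (-0.14 and -0.10) and 4 (0.18 and 0.19) they deviated in the same direction, and in replicates 1 and 3 in opposite directions. Across the 8 WT libraries, with the mean of each diet removed, the genes whose pattern was most like that of Glul among 3952 compared were Heatr1 (Pearson r = 0.958), Socs2 (0.956), D10Wsu102e (0.954), Serpinf2 (0.946) and Cldn14 (0.937). For Gls2 they were Pycrl (0.984), Qprt (0.978), Mrpl49 (0.965), Pdk2 (0.962) and Rab29 (0.961). These are the highest of many correlations over 8 libraries and are given as a description.

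**Figure D3:**
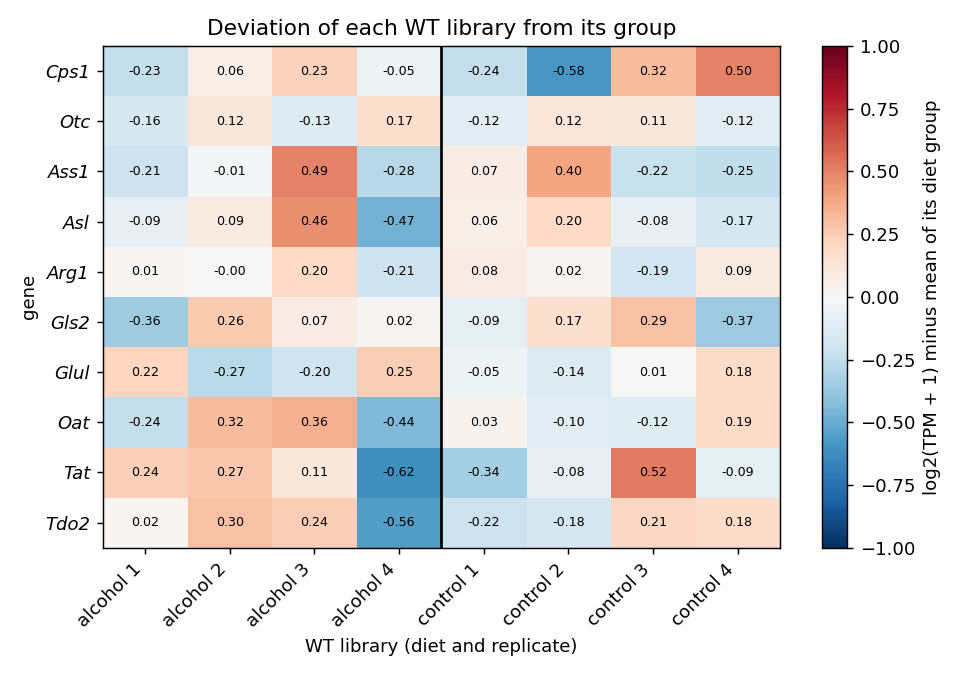
Deviation of each WT library from the mean of its diet group for the 10 genes, on the log2(TPM + 1) scale, with the 4 alcohol libraries left of the 4 control libraries. Alcohol replicate 4 is low for Tat, Tdo2, Asl and Oat and high for Glul.

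The periportal members (Cps1, Ass1 and Gls2) were set against the pericentral members (Glul and Oat) as the difference of their mean log2(TPM + 1). In WT liver this difference was -0.70, -0.37, -0.26 and -0.45 in the alcohol libraries, against -0.16, 0.03, 0.11 and -0.31 in the control libraries. The means were -0.45 ± 0.187 on alcohol and -0.08 ± 0.188 on control (SD, n = 4 each), and the groups overlapped. The difference between diets was -0.36. With Glul alone as the pericentral side it was -0.72. Among the genes used, only Glul was called in WT liver (log2 fold change 0.59). Oat had -0.11, close to Cps1 (-0.12), Ass1 (-0.05) and Gls2 (-0.20), so the WT difference came mostly from Glul. In the libraries labelled RageΔMye the periportal minus pericentral values were 0.53, -2.85 and -2.18 on alcohol and 0.11, 0.35 and -1.17 on control. The 3 low values belong to the libraries in which Ass1 was listed at 0. The difference between diets was -1.26 in the libraries labelled RageΔMye, -2.28 to -0.59 with 1 library left out, and -0.61 with Ass1 left out, an alternative chosen after the values were seen.

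**Figure D4:**
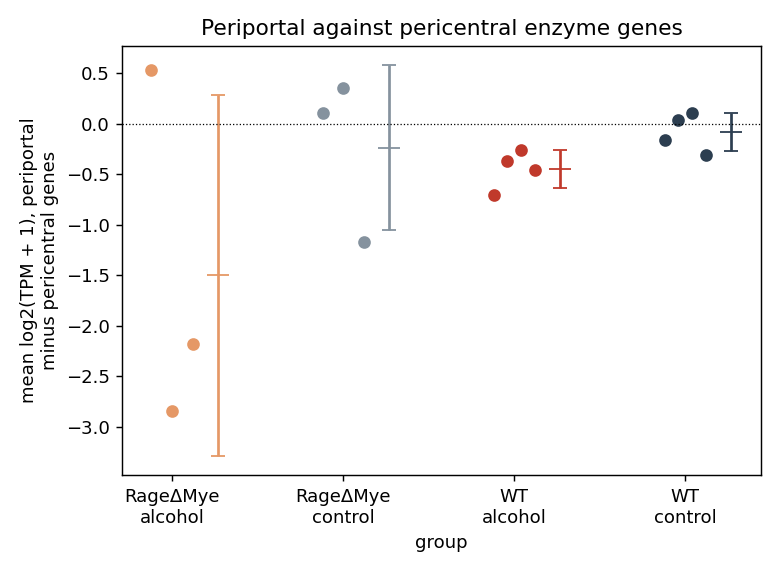
Mean log2(TPM + 1) of Cps1, Ass1 and Gls2 minus that of Glul and Oat, with 1 point per library and the group mean with its SD beside the points. The WT alcohol libraries lie at -0.70 to -0.26 and the WT control libraries at -0.31 to 0.11.

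Other markers of both zones were mixed in direction in WT liver. Of 12 other periportal markers 2 rose and 3 fell, and of 15 tested pericentral markers other than Glul and Oat 2 rose and 4 fell, where 31.2% of all genes tested were called. The serine dehydratase Sds (log2 fold change 0.66) and the gluconeogenic enzyme Fbp1 (0.41) were higher, and Cyp2f2 (-1.28), the histidine ammonia lyase Hal (-0.70) and the glucose-6-phosphatase G6pc (-0.84) were lower. Among the pericentral markers, Cyp2a5 (1.96) and Lect2 (0.43) were higher, and Aldh1a1 (-0.90), the Wnt pathway ubiquitin ligase Rnf43 (-0.68), Cyp27a1 (-0.51) and the alcohol-metabolising cytochrome Cyp2e1 (-0.39) were lower. In the 8 fits that left out 1 library, the threshold was missed by Cyp2e1 in 7, Lect2 in 7, Fbp1 in 5, G6pc in 4 and Cyp27a1 in 4. The median log2 fold change was -0.30 over the periportal and -0.27 over the pericentral markers, beside -0.05 over all genes tested, so both lists lay below it.

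Of all genes tested in WT liver, 31.2% were called, and the urea cycle, glutamine and ornithine lists that follow had no larger share. Around the urea cycle, 12 carriers and supporting enzymes were tested and 1 fell. That was Car5a, the mitochondrial carbonic anhydrase that supplies bicarbonate to Cps1, at 17.4 ± 4.38 TPM on alcohol and 37.3 ± 11.5 TPM on control (SD, n = 4 each, log2 fold change -1.04, adjusted p = 0.0101). The list of ammonia and glutamine handling had 10 tested genes and shared a gene with the urea cycle list. In it the amino acid carrier Slc38a2 rose (1.23, adjusted p = 0.00363) and the asparagine synthetase Asns, which uses glutamine, fell (-3.45, adjusted p = 3.5e-05). Asns was at 0.857 ± 0.150 TPM on alcohol and 21.5 ± 11.8 TPM on control. Among 14 genes of ornithine, proline and polyamine metabolism 3 rose and 1 fell. The spermidine and spermine acetyltransferase Sat1 was at 173 ± 4.52 TPM on alcohol and 67.6 ± 8.16 TPM on control (1.35, adjusted p = 2.2e-05). Azin1 (0.63) and Aldh4a1 (0.37) were higher, and the proline dehydrogenase Prodh (-0.64) was lower. In the 8 fits that left out 1 library, Aldh4a1 missed the threshold in 7, Azin1 in 4 and Prodh in 3.

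Of 7 tyrosine pathway genes 1 fell, the homogentisate dioxygenase Hgd (682 ± 64.6 TPM on alcohol, 933 ± 122 TPM on control, log2 fold change -0.45, adjusted p = 0.0225). Of 10 tested genes of the tryptophan and kynurenine pathway other than Tdo2, 7 fell and 1 rose, where 17.9% of all genes tested fell, and the median log2 fold change was -0.59, beside -0.05 over all genes tested. Kynu, the kynureninase, was at 40.0 ± 5.25 TPM on alcohol and 97.4 ± 19.9 TPM on control (-1.25, adjusted p = 3.6e-04). Ido2, a dioxygenase for the same first step as Tdo2, was at 15.0 ± 2.92 TPM on alcohol and 48.2 ± 17.2 TPM on control (-1.58, adjusted p = 9.4e-04). Acmsd (-1.15), Kyat1 (-0.78), Aadat (-0.74), Qprt (-0.45) and Kmo (-0.44) were also lower, and Kyat3 was higher (0.49). Hgd and Kmo missed the threshold in 3 of the 8 fits that left out 1 library, and Qprt in 2.

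**Figure D5:**
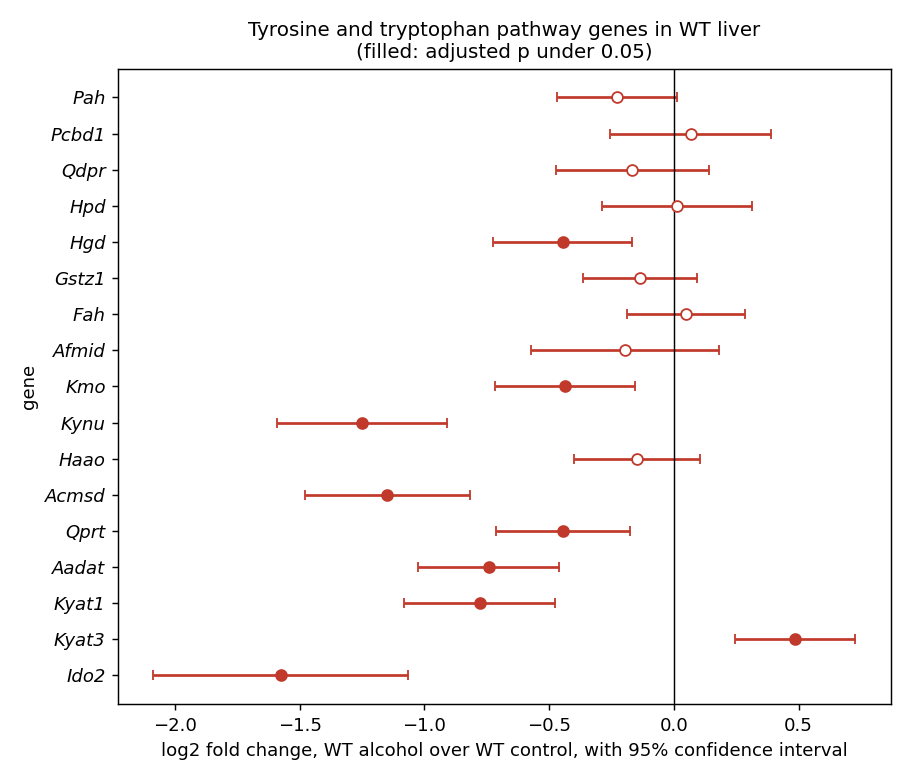
Log2 fold change of WT alcohol over WT control for genes of tyrosine and tryptophan breakdown other than Tat and Tdo2, with 95% confidence intervals and filled points where the adjusted p was under 0.05. Kynu, Acmsd and Ido2 lie below -1, and Kyat3 lies above 0.

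Of 19 other amino acid catabolic genes, 2 rose and 4 fell in WT liver: Sds and Sdsl (0.68) were higher, and Hal, Gldc (-0.68), Amt (-0.61) and Hibch (-0.47) were lower. Of 20 tested regulators of these genes, 2 rose and 5 fell. Both shares are near the 31.2% of all genes that were called. Stat3 (0.95) and Hnf4a (0.56) were higher. The glucocorticoid-responsive genes Tsc22d3 (-1.56) and Klf15 (-0.88), the factor Cebpa (-0.92) and the glucagon receptor Gcgr (-0.58) were among those lower. Also glucocorticoid-responsive, and named after their values were seen, Fkbp5 (64.4 ± 10.1 TPM on alcohol, 58.0 ± 16.9 TPM on control) and Per1 (9.32 ± 1.37 TPM on alcohol, 7.52 ± 0.508 TPM on control) did not pass. With 1 library left out, Hibch missed the threshold in 5, Hnf4a in 4 and Gldc in 3 of 8 fits.

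In the libraries labelled RageΔMye no member passed the test between diets, and 0.0374% of 10689 genes did. At an unadjusted p under 0.05 there were 747 genes, which is 6.99%. Asl came nearest, at 390, 361 and 427 TPM on alcohol against 182, 221 and 101 TPM on control. The groups did not overlap. Its log2 fold change was 1.29 (SE 0.331, 95% confidence interval 0.52 to 2.06, limma adjusted p = 0.324). Oat was at 33.5, 40.0 and 31.7 TPM on alcohol and at 31.2, 19.3 and 13.5 TPM on control, again without overlap (0.76, interval -0.32 to 1.85, adjusted p = 0.751). Of all genes tested, 5.83% had higher alcohol values with no overlap. Summed Mup genes also differed between these groups, with 460 to 11282 TPM on alcohol and 21370 to 33013 TPM on control. Summed Y-linked genes did not overlap between them either. The part of Mup genes or of sex in the values of Asl and Oat was not tested. In the joint fit of all 14 liver libraries Asl passed (adjusted p = 0.0162). That fit gives the libraries of both genotypes 1 shared spread.

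The other members overlapped between diets in the libraries labelled RageΔMye. Glul was at 292, 435 and 217 TPM on alcohol and at 352, 233 and 118 TPM on control (log2 fold change 0.50, interval -0.53 to 1.53). Tat was at 136, 160 and 244 TPM on alcohol and at 229, 210 and 178 TPM on control (-0.23, interval -0.94 to 0.48). Ass1 was listed at 395, 0 and 0 TPM on alcohol and at 137, 161 and 0 TPM on control, and no mean is given. Tdo2 was at 165, 106 and 136 TPM on alcohol and at 132, 48.3 and 79.7 TPM on control (0.74, interval -0.25 to 1.72). Arg1 was at 492, 410 and 534 TPM on alcohol and at 432, 418 and 439 TPM on control, the narrowest control range of the 10 relative to its level.

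Whether alcohol and control libraries differed by the same amount in both genotypes was tested over all 14 libraries, with library weights per genotype. No member passed, and 0.505% of 12069 genes did, with 8.5% at an unadjusted p under 0.05. The difference of log2 fold changes, RageΔMye minus WT, was 1.47 for Asl (interval -0.67 to 3.61, adjusted p = 0.717), -1.05 for Tat (-3.75 to 1.65, adjusted p = 0.872) and -0.09 for Glul (-1.81 to 1.62, adjusted p = 0.985). These intervals are wide. Sex cannot be told apart from diet on the WT side of this comparison. The libraries labelled RageΔMye also listed far fewer genes than WT libraries. A difference between genotypes in the effect of diet alone therefore could not be tested. Combining the fits of each genotype gave adjusted p = 0.0863 for Asl and 0.194 for Tat, and without library weights Asl passed (adjusted p = 0.0475).

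Most members were lower in the libraries labelled RageΔMye than in WT libraries. Over both diets, mean TPM in the libraries labelled RageΔMye was 0.213 of that in WT as the median of the 9 genes other than Ass1. Among these the ratio was lowest for Tat (0.0800) and highest for Gls2 (0.869). The libraries also differed in how many genes were listed above 0, and these ratios carry no test. Gls2 and Glul are the members with an exon overlapping one on the opposite strand. Spryd4 shares 97 bases with Gls2, or 2.79% of its exonic length, and was at 48.7 to 242 TPM in libraries labelled RageΔMye and at 33.9 to 47.6 TPM in WT libraries. Teddm2 shares 116 bases with Glul, or 3.49%, and was at 10.6 to 36.3 TPM in libraries labelled RageΔMye and at 0 to 0.0764 TPM in WT libraries. The library kit marks strand, and the strand setting of the counting is not given in the sources used here, so reads of such pairs may not be told apart. Genes of this kind held 55.8% to 61.7% of the TPM in libraries labelled RageΔMye and 15.4% to 18.3% in WT libraries.

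By mean TPM the order in WT alcohol liver was Tat (3078), Arg1 (2154), Ass1 (2086), Glul (1559), Asl (926), Cps1 (877), Tdo2 (777), Oat (232), Otc (70.9) and Gls2 (45.4). In WT control liver it was Ass1 (2140), Arg1 (2089), Tat (1740), Asl (1023), Glul (1023), Cps1 (986), Tdo2 (759), Oat (245), Otc (72.9) and Gls2 (52.6). On alcohol, Arg1 and Ass1 lay within their SDs of each other, as did the neighbours from Asl to Tdo2. On control the same held for Ass1 and Arg1 and for the neighbours from Asl to Cps1.

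In RAW264.7 cells, Arg1, which competes with nitric oxide synthase for arginine in macrophages, was listed at 0, 0 and 6.20 TPM with the complex of [O] HMGB1 and IL1β, against 5.62, 6.30 and 15.1 TPM with BSA. The groups overlapped. The log2 fold change was -2.25 on the log2(TPM + 1) scale (95% confidence interval -4.42 to -0.09, limma adjusted p = 0.577), and 0.180% of 10559 genes were called. With 2 libraries at 0 this value depends on the pseudocount, and it was -4.37 with a pseudocount of 0.1 and -1.78 to -3.20 with 1 library left out. In the BSA libraries Arg1 stood at the 36.9 to 58.8 percentile of the genes above 0, so it was not among the abundant genes of these cells. Cps1, Otc, Ass1 and Tat were listed at 0 in all 6 libraries.

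Of 8 tested genes of macrophage arginine use and alternative activation none passed, and 877 of all genes tested (8.31%) had an unadjusted p under 0.05. Odc1, which makes putrescine from the ornithine that arginase releases, was at 572, 755 and 529 TPM with the complex and at 279, 300.5 and 264 TPM with BSA. The groups did not overlap (log2 fold change 1.12, adjusted p = 0.0527), and 5.63% of genes had higher values with the complex and no overlap. Arg2, the mitochondrial arginase, was at 35.0, 80.4 and 34.1 TPM with the complex and at 107, 70.5 and 67.8 TPM with BSA (-0.79, adjusted p = 0.625).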

How the data were processed

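RNA was sequenced from 14 total liver samples and 6 RAW264.7 samples. Per the labels' protocols the kit was TruSeq Stranded mRNA, and per the submitters' processing notes the build was mm10. Aligner, counter, strand setting and annotation: not given in the sources used here. The authors deposited 1 table per experiment. Its headers name no unit, and the values were read as TPM computed by the authors, because they are not whole numbers and each library sums to about 1000000. The table has 24972 rows and 24970 symbols, and repeated symbols were kept as separate rows. The depth is unknown, so no counting interval is given. No label says that replicates are separate animals or cultures, so p-values measure only the spread between these samples.

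Values were transformed to log2(TPM + 1), so fold changes of low genes are understated. Tested genes averaged 1 TPM or more in 1 of the groups compared. The test was that of limma 3.58.1 (R 4.3.3) with an intensity trend, and Benjamini-Hochberg adjustment ran over all genes tested. The 8 WT, the 6 RageΔMye and the 6 RAW264.7 libraries were fitted separately, and the difference between genotypes was fitted on 14 libraries with weights per genotype. The design allowed for counts or normalised values, and TPM took the second. The tests were also run on simulated data, whose outcome is not reported here and is not used as support. Exonic overlap came from GENCODE vM21, which placed 24464 of 24970 symbols, and promoters from RefSeq.

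The members and lists were chosen with earlier results of these data known. The genes named are the 10 members, listed genes that passed (otherwise at most 4 per list, as values), opposite-strand partners, and the 5 genes most like Glul and Gls2. A listed gene that this rule selects is not reported here. Alternatives changed the pseudocount, filter, scaling, trend, weights, joint fit and replicate block, and left out libraries.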

Additional observations from a re-analysis of the deposited data

How the results depend on the processing

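Glul in WT liver kept its call in all 8 fits that left out 1 library and in the joint fit with library weights (limma adjusted p = 0.00296). It lost the call in the joint fit without weights (adjusted p = 0.457) and without WT alcohol replicate 4 and WT control replicate 3 together (adjusted p = 0.0739). That omission of a pair, the separate fits combined and the omission of Ass1 were chosen after seeing the data. Without that pair of libraries 1644 genes and 1 member (Tat) were called in WT liver, and Cps1 turned to 0.0090 on the log2 scale. The number of members called in WT liver was 1 without a filter, 1 of 8 with TPM rescaled without opposite-strand genes (which drops Glul and Gls2) and 0 in the joint fit, and 1 to 2 with 1 library left out. The WT count of 3042 genes was 1881 with a filter at 5 TPM, 471 in the joint fit, and 2055 to 3469 with 1 library left out. In the libraries labelled RageΔMye, 4 genes were called, against 9 with a filter at 5 TPM, 7 with median-ratio scaling, 7 with quantile normalization, 37 without the trend, 664 in the joint fit (1 member), 27 in that fit with weights, and 0 to 5 with 1 library left out. The difference between genotypes had 61 calls, against 128 without a filter, 39 without opposite-strand genes, 463 without weights (1 member) and 336 with separate fits combined. RAW264.7 cells had 19 calls, against 6 without opposite-strand genes and 2 to 9 with 1 library left out.

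Same-numbered samples were not treated as paired, and the labels do not say whether they were. The correlations of their deviations were -0.025 to 0.018, and those of differently numbered samples -0.037 to 0.038. With 3 libraries per group these values cannot show whether a pairing existed. A fit with the replicate number as a block left 0 calls in libraries labelled RageΔMye and 0 in RAW264.7 cells. WT labels carry no replicate number.

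Signs turned only in members that missed the threshold. In WT liver they were Ass1 with quantile normalization (0.095), and Arg1 (-0.11) and Tdo2 (-0.14) with Mup genes left out. For the difference between genotypes they were Cps1 (-0.17) and Arg1 (-0.13) with median-ratio scaling, and Cps1 (-0.072) and Arg1 (-0.090) with quantile normalization. With 1 library left out, WT log2 fold changes ran from -0.31 to 0.050 for Cps1, -0.098 to 0.011 for Otc, -0.21 to 0.086 for Ass1, -0.026 to 0.11 for Arg1, -0.23 to 0.038 for Oat and -0.087 to 0.20 for Tdo2. In libraries labelled RageΔMye they ran from -0.31 to 0.19 for Cps1 and -0.093 to 0.39 for Gls2, and for the difference from -0.19 to 0.31 for Cps1 and -0.52 to 0.27 for Glul. The periportal minus pericentral difference in WT was -0.72 with Glul alone. The cause of these changes was not tested. The unknown depth and the wide spread limit what libraries labelled RageΔMye and RAW264.7 libraries can show.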
